A study of Mus musculus with 9 samples.

Results

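The genes of the interleukin-1 (IL-1) family and its inflammasome were examined in 9 RNA-sequencing samples of myeloid-derived suppressor cells (MDSCs), immature myeloid cells that expand in tumour-bearing mice and restrain immune responses. The 9 genes were chosen by symbol (Il1a, Il1b, Il1rn, Il1r1, Il1r2, Il1rap, Il18, Casp1 and Nlrp3) from the 23284 symbols measured in each sample, and all 9 were found. All cells came from the spleens of mice bearing a subcutaneous tumour of SCT cells, a spindle cell tumour line from the skin of a p16 knockout mouse treated with carcinogen, and were collected 3 weeks after its inoculation. There were 3 samples each of polymorphonuclear (PMN-) MDSCs from wild-type (WT) C57BL/6J mice, of monocytic (Mo-) MDSCs from WT C57BL/6J mice, and of Mo-MDSCs from C57BL/6 mice labelled as p16/p21 double knockouts (DKO). The subsets were separated with magnetic beads by Ly6G and Gr-1. The knockout was of the mouse and not of the MDSCs alone. PMN-MDSCs from DKO mice were not analysed here. All samples carry an age label of 3 weeks, whereas the mice were adult at inoculation by the study's methods. Whether a sample came from 1 mouse or from a pool is not given in the sources used here, so the p-values measure only the spread between these samples.

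IL-1α and IL-1β are the founding ligands of the family and drive fever, neutrophil recruitment and the acute inflammatory response. Both bind the receptor IL-1R1, which then recruits the accessory chain IL-1RAP and signals through MyD88 to NF-kB. The pathway is restrained by the receptor antagonist encoded by Il1rn, which occupies IL-1R1 without signalling, and by the decoy receptor IL-1R2, which captures ligand without a signalling tail. IL-1β and IL-18 are made as inactive precursors, and caspase-1, activated on an inflammasome such as that built by the sensor NLRP3, cleaves them. Neutrophils and monocytes are both known sources of IL-1β.

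Il1a and Il1b are neighbours on mouse chromosome 2 (GENCODE M21, GRCm38, equal to mm10). Il1a lies at chr2:129299610-129309972 and Il1b at chr2:129364570-129371139, both on the minus strand, with a gap of 54597 bases between them. Il1rn is on the same chromosome, nearer its start and on the plus strand (chr2:24336853-24351494). The receptor genes Il1r2 (chr1:40074079-40125231) and Il1r1 (chr1:40225080-40317257) share a strand and are separated by 99848 bases. The 250 bases before the transcription starts of Il1b and Il1a are shown because these neighbouring genes behaved differently between the subsets (values below). They are from RefSeq (GRCm38.p6), minus strand, chr2:129371140-129371389 for Il1b and chr2:129309973-129310222 for Il1a. Capitals mark TATAAA and would also have marked GGNNNTTCC, an NF-kB-like motif, which neither window holds.
Il1b: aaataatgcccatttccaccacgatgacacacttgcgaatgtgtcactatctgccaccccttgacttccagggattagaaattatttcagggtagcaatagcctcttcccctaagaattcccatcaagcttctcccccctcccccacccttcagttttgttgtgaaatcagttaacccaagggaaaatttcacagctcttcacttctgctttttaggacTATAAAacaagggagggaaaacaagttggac
Il1a: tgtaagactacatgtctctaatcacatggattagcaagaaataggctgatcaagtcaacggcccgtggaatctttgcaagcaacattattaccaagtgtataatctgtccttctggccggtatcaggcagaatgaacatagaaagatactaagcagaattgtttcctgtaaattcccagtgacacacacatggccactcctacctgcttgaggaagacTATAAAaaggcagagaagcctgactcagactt
TATAAA began 31 bases before the start of Il1b and 32 bases before that of Il1a.

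Altogether 4 motifs were searched on both strands in the same 250 bases of all 32851 mouse promoters of the table, which holds 13 starts of the 9 genes. TATAAA was present in 12.4% of all promoters and before 3 of the 13 starts (Il1a, Il1b and Il18). GGNNNTTCC was present in 15.7% of promoters and before 5 of the 13 starts, of Il1r1, Il1r2, Il1rn and, at both of its starts, Nlrp3. TTGCNNAA, a C/EBP-like motif, was present in 9.56% and before 1 start of Il1r1, and AGGAAGT, an ETS-like motif, in 7.69% and before none of the 13. The last of these motifs can share bases with GGNNNTTCC. These matches describe the letters of the windows only.

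The study's primer pair for Il1rn is shown because Il1rn was the member that passed the test in both comparisons. The paper describes Il1rn expression as similar in MDSCs of WT and p16/p21-DKO mice, unlike the call of lower Il1rn below.
Il1rn forward: gctcattgctgggtacttacaa
Il1rn reverse: ccagacttggcacaagacagg
The forward primer matches chr2:24347511-24347532 and the reverse primer, read on the minus strand, chr2:24348583-24348603, both in coding exons. Both match 3 of the 6 annotated Il1rn transcripts with a product of 132 bases, which is exon 2 to exon 3 in Il1rn-201 and exon 3 to exon 4 in Il1rn-202 and Il1rn-204. The FPKM values below are sums per gene and do not separate these transcripts.

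Expression is given as FPKM, the fragments of a gene scaled to the length of its transcripts and to the mapped fragments of the sample. Total FPKM was between 494252 and 916642 per sample and 11299 to 11418 genes reached 1 FPKM. Read numbers are not in the files used here. The relative depth, taken from the steps that 1 read makes in low genes, ranged from 0.809 to 1.31 of that of WT Mo-MDSC replicate 1. The labels number the libraries, and the numbers of the 3 first replicates come before, and apart from, those of all others.

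Of the targeted genes, Cdkn1a (p21) was at 8.18, 6.46 and 8.04 FPKM in WT Mo-MDSCs and at 5.55, 8.52 and 6.00 FPKM in the Mo-MDSCs labelled DKO. These ranges overlap, and the log2 difference of -0.19 (SE 0.179) did not pass the test (limma, adjusted p = 0.637). Cdkn2a, the gene of p16 and p19Arf, was at 0.718, 0.772 and 0.432 FPKM in WT and at 0.258, 0.586 and 0 FPKM in the Mo-MDSCs labelled DKO, too low to be tested. The sources used here do not say which exons the knockout alleles lack, and values per gene do not resolve exons, so these levels do not check the genotype. The group is therefore named by its label throughout.

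The labelled cell types were checked against marker lists. Of 8 monocyte markers, 7 were higher in WT Mo-MDSCs in the comparison of subsets. Among them, Ccr2 was at 2.36 to 2.51 FPKM in PMN-MDSCs and at 280.7 to 361.5 FPKM in WT Mo-MDSCs. The differences of Ly86, Ctss and Irf8 were far smaller, with WT Mo-MDSC means 1.44, 1.69 and 1.36 times those in PMN-MDSCs. The remaining marker, Csf1r, was level and high in both, with means of 753 FPKM in PMN-MDSCs and 797 FPKM in WT Mo-MDSCs. Of 7 measured neutrophil markers, 4 were lower in WT Mo-MDSCs, while the granule genes Camp, Ltf and Ngp stayed at 74.5%, 59.3% and 70.5% of the mean PMN level. B cell markers summed to 1451 to 1654 FPKM in PMN-MDSCs, 1034 to 1163 FPKM in WT Mo-MDSCs and 1103 to 1393 FPKM in those labelled DKO. Macrophage markers summed to 5418 to 6441, 3368 to 4328 and 3596 to 5546 FPKM in the same order. Both sums were thus higher in PMN- than in WT Mo-MDSCs, without overlap. Every measured marker of both lists was at 1 FPKM or more in every sample. Erythroid markers were highest in replicate 2 of each group (2471 to 2899 FPKM in sum). T cell, NK cell, megakaryocyte or platelet, and basophil or mast cell markers summed to at most 36.3, 11.4, 9.98 and 1.13 FPKM, and dendritic cell markers to 22.8 to 44.1 FPKM. The part of these other cells in the results was not tested. In such bulk samples, fewer cells of a type and less RNA per cell cannot be told apart.

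The order of the 9 genes differed between the subsets. In PMN-MDSCs Il1b led with a mean of 1737 FPKM, rank 46 among all genes, and no other member came near it. Il1r2 (146 FPKM) and Il18 (134 FPKM) followed and their samples overlapped. Il1rn (79.0 FPKM), Il1rap (62.9 FPKM), Casp1 (60.4 FPKM) and Nlrp3 (52.2 FPKM) came next, each overlapping its neighbour in this order, with Il1a (10.8 FPKM) and Il1r1 (1.54 FPKM) last and apart. In WT Mo-MDSCs Il18 led (123 FPKM), followed by Casp1 (58.4 FPKM) and Il1b (33.1 FPKM), none of which overlapped. Nlrp3 (13.3 FPKM), Il1a (10.9 FPKM), Il1r2 (8.53 FPKM), Il1rn (7.67 FPKM) and Il1rap (5.76 FPKM) followed, and Il1r1 was again last (1.66 FPKM). Of these, Nlrp3 did not overlap Il1a, whereas Il1a and Il1r2, Il1r2 and Il1rn, and Il1rn and Il1rap overlapped. The Mo-MDSCs labelled DKO kept this order apart from Il1rn, which stood at 3.49 FPKM, below Il1rap at 4.75 FPKM without overlap.

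**Figure D1:**
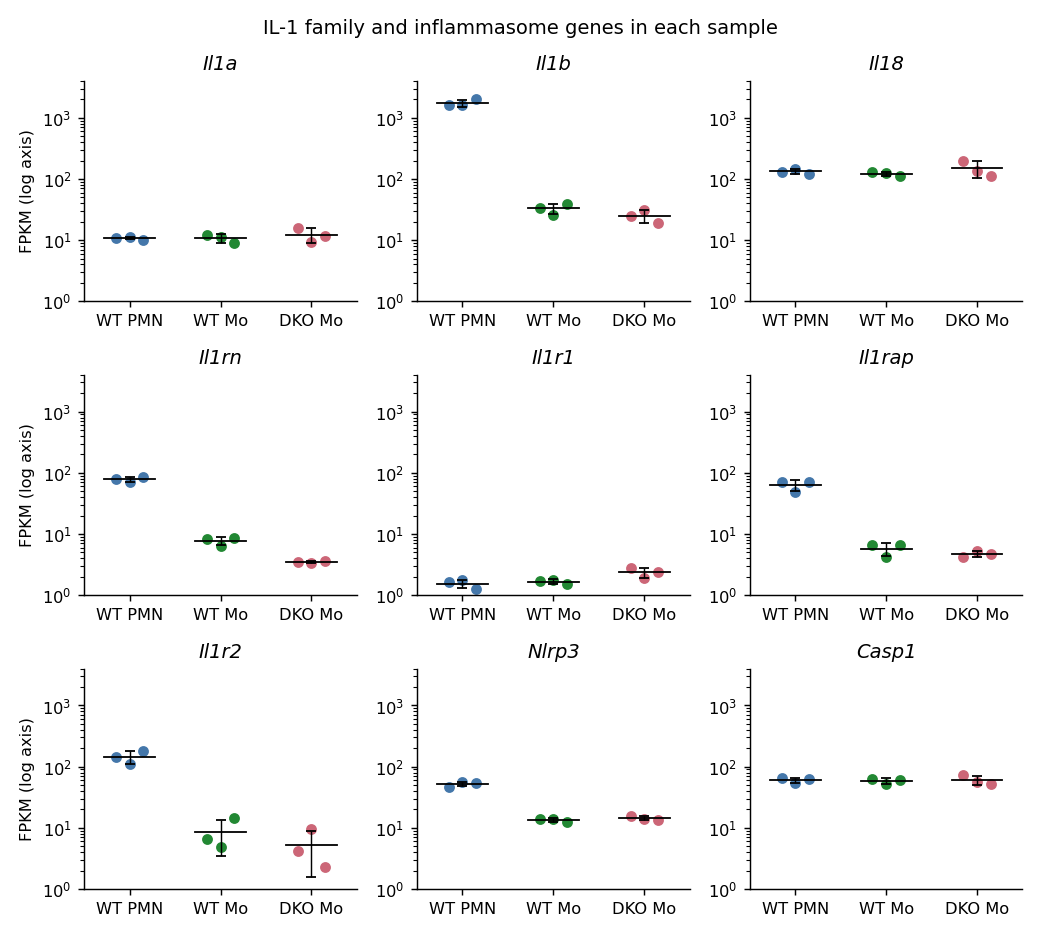
FPKM (log axis) of each of the 9 genes in the 3 samples of each group, with points for replicates 1 to 3 from left to right and lines for the mean and SD. The PMN-MDSC samples lie far above the Mo-MDSC samples for Il1b, Il1rn, Il1rap, Il1r2 and Nlrp3, and level with them for Il1a, Il18 and Casp1.

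The first comparison asks how the 2 subsets of WT mice differ. Of the 9 genes, 5 were lower in the Mo- than in the PMN-MDSCs (Il1b, Il1rn, Il1r2, Il1rap and Nlrp3), and none was higher (limma on log2(FPKM + 0.1), Benjamini-Hochberg adjusted p under 0.05, with none of the others at an unadjusted p under 0.05). Over all 11491 genes tested, 20.6% were lower and 18.5% were higher. The median log2 difference of the 9 genes was -1.96, beside 0.01 over all genes tested.

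Among the ligands, Il1b showed the largest difference of the 9. It was at 1613, 1594 and 2005 FPKM in PMN-MDSCs and at 33.8, 26.2 and 39.2 FPKM in WT Mo-MDSCs. Every Mo-MDSC sample was thus far below every PMN-MDSC sample, the mean of the former being 1.90% of that of the latter. The log2 difference was -5.72 (SE 0.165, limma adjusted p = 3.13e-06). Its neighbour Il1a, by contrast, was at 11.0, 11.2 and 10.2 FPKM in PMN-MDSCs and at 12.3, 11.4 and 8.94 FPKM in WT Mo-MDSCs. These samples overlapped, with a log2 difference of -0.0024 and a 95% interval from -0.31 to 0.30. Il18, the ligand that stimulates interferon-γ production, was at 132, 148 and 123 FPKM in PMN-MDSCs and at 129, 125 and 113 FPKM in WT Mo-MDSCs. These samples also overlapped, with a log2 difference of -0.13 and a 95% interval from -0.35 to 0.10.

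The genes that restrain IL-1 were lower in WT Mo-MDSCs as well. Il1rn, the receptor antagonist, was at 80.5, 71.1 and 85.5 FPKM in PMN-MDSCs and at 8.18, 6.31 and 8.53 FPKM in WT Mo-MDSCs. The groups did not overlap, and the log2 difference was -3.36 (SE 0.132, limma adjusted p = 8.62e-06). Il1r2, the decoy receptor, was at 146, 112 and 179 FPKM in PMN-MDSCs and at 6.49, 4.84 and 14.2 FPKM in WT Mo-MDSCs. Its samples were apart too, with a log2 difference of -4.20 (SE 0.381, limma adjusted p = 0.000213). The SE of Il1r2 was the largest of the 9, and WT Mo-MDSC replicate 3 was the highest of its group.

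The signalling receptor chains differed from each other. Il1rap, the accessory chain, was at 69.5, 48.0 and 71.3 FPKM in PMN-MDSCs and at 6.48, 4.20 and 6.60 FPKM in WT Mo-MDSCs. The groups were apart, with a log2 difference of -3.43 (SE 0.219, limma adjusted p = 5.06e-05). Il1r1, the ligand-binding chain, was low in both, at 1.61, 1.76 and 1.27 FPKM in PMN-MDSCs and at 1.71, 1.78 and 1.49 FPKM in WT Mo-MDSCs. These samples overlapped, with a log2 difference of 0.11 and a 95% interval from -0.33 to 0.54.

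Of the processing genes, the sensor Nlrp3 was at 46.9, 56.3 and 53.3 FPKM in PMN-MDSCs and at 13.7, 14.0 and 12.4 FPKM in WT Mo-MDSCs. The groups did not overlap, and the log2 difference was -1.96 (SE 0.0948, limma adjusted p = 1.90e-05). Casp1, the protease, was at 64.2, 54.0 and 62.9 FPKM in PMN-MDSCs and at 63.8, 51.4 and 60.0 FPKM in WT Mo-MDSCs. These values overlapped, with a log2 difference of -0.05 and a 95% interval from -0.31 to 0.21. Within the library series, the log2 difference of the 5 called genes in replicate 1 alone and in replicates 2 and 3 had the same sign, from -5.57 and -5.80 for Il1b to -1.77 and -2.05 for Nlrp3.

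**Figure D2:**
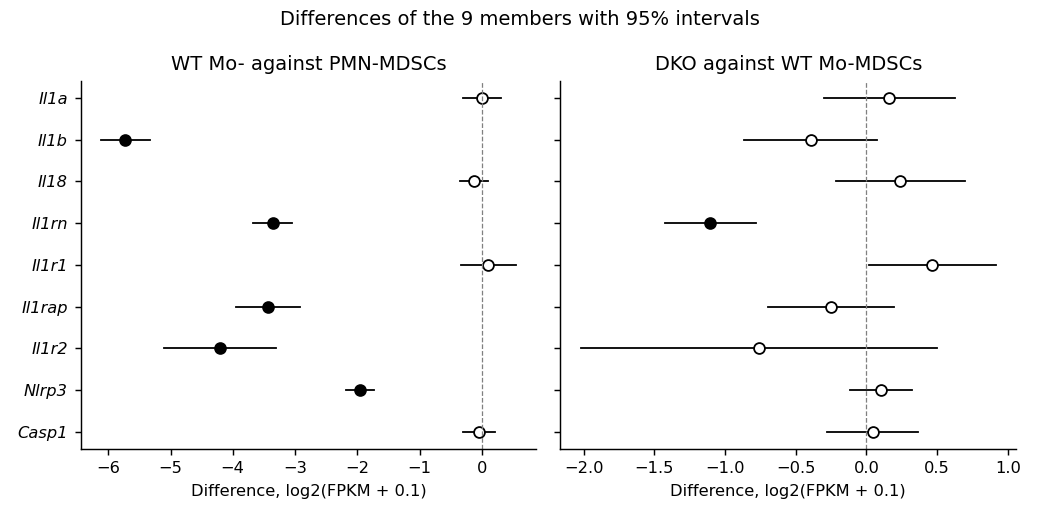
Log2 differences (points) with 95% intervals (lines) of the 9 genes on the log2(FPKM + 0.1) scale, in WT Mo- against PMN-MDSCs (left) and in Mo-MDSCs labelled DKO against WT (right, with its own axis). Filled points passed an adjusted p of 0.05, which 5 genes did on the left and only Il1rn on the right.

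Because antagonist and ligand were both lower in WT Mo-MDSCs, their proportion was compared. There were 4.99, 4.46 and 4.27 FPKM of Il1rn per 100 FPKM of Il1b in PMN-MDSCs, and 24.2, 24.1 and 21.8 in WT Mo-MDSCs. The 2 groups did not overlap in this proportion. The log2 ratio of Il1rn to Il1b differed by 2.37, from -4.45 ± 0.116 (SD, n = 3) in PMN-MDSCs to -2.08 ± 0.0887 (SD, n = 3) in WT Mo-MDSCs (exact two-sided permutation test, p = 0.1, the smallest that 3 against 3 samples allow).

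The level that remained in Mo-MDSCs was set beside that of neutrophil markers. As a share of the mean in PMN-MDSCs, WT Mo-MDSCs held 1.90% of Il1b, 5.86% of Il1r2, 9.15% of Il1rap, 9.71% of Il1rn and 25.6% of Nlrp3. The neutrophil receptor genes Cxcr2 and Csf3r were at 1.66% and 5.31%, and the neutrophil genes Retnlg and Mmp8 at 2.07% and 13.5%. The granule genes Camp, Ltf and Ngp of the same list were at 74.5%, 59.3% and 70.5%, above each of these members. Il1b was thus in the range of Cxcr2 and Retnlg, and Nlrp3 above the 4 neutrophil markers that passed the test as lower. The part of residual neutrophil-type cells in the Mo-MDSC values was not tested.

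**Figure D3:**
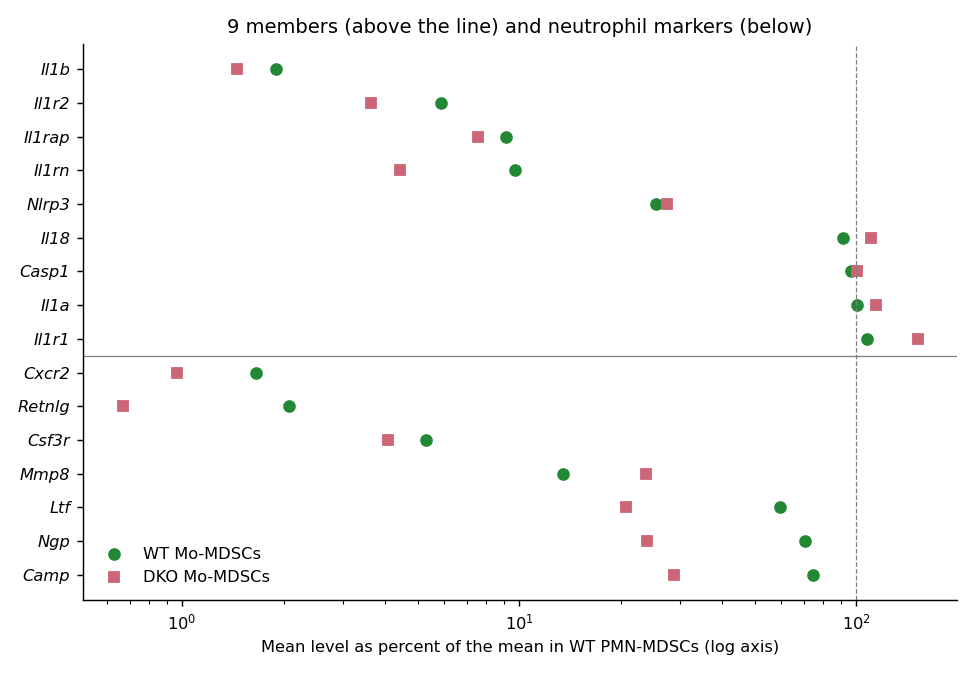
Mean level of each gene in WT Mo-MDSCs (circles) and Mo-MDSCs labelled DKO (squares) as a percent of its mean in WT PMN-MDSCs (log axis, dashed line at 100), for the 9 genes above the line and 7 neutrophil markers below it. Il1b lies near Cxcr2 and Retnlg at the left, and Il18, Casp1 and Il1a near 100. Il1r1 is at 107% in WT Mo-MDSCs and at 152% in those labelled DKO.

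The genes whose pattern over the 9 samples was most like that of each member were found by the root mean square (RMS) difference of log2 values, centred on each gene's own mean, among 11717 other genes. Nearest to Il1b were Il1f9 (the symbol used here for Il36g, which encodes IL-36γ, another ligand of the family) with an RMS of 0.301, Sycp2 with 0.328 and Cxcr2 with 0.343. Nearest to Il1rn were Scnn1a (0.253), Gcnt2 (0.286) and Il18rap (0.289), the last encoding the accessory chain of the IL-18 receptor. Il1r2 was nearest to Hdc, which encodes histidine decarboxylase (0.359), Mrgpra2b (0.384) and Trem1 (0.390), and Il1rap to Ppp1r3b (0.156), Abtb2 (0.165) and Cpd (0.198). Nlrp3 was nearest to Fbxo31 (0.0919), Nek6 (0.110) and Anubl1 (0.115). Among the members that were level between the subsets, Casp1 was nearest to Slfn8 (0.0530), Crk (0.0600) and Trim34a (0.0654), and Il18 to Ppap2b (0.0976), Tspan15 (0.0992) and Zfp703 (0.104). Il1a was nearest to Cmtm4 (0.10), Gm6300 (0.103) and Txnrd3 (0.103), and Il1r1 to Srgap3 (0.0659), Endou (0.0743) and Myo9a (0.0871). A member that varies little lies near other genes that vary little, so these RMS values do not rank likeness across members. The SD of the member's own log2 values was 0.152 for Casp1, 0.224 for Il1a, 0.237 for Il18 and 0.303 for Il1r1. For the other members it lay between 0.904 (Nlrp3) and 2.81 (Il1b). These are descriptions of 9 samples, which share their preparation.

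Further genes of the pathway were taken from 6 lists of 79 genes in all, of which 75 were in the files and 62 were tested. In WT Mo- against PMN-MDSCs, 24 of the 62 were lower and 17 were higher, and their median log2 difference was -0.05. Over all genes tested, 20.6% were lower and 18.5% were higher, shares that also belong beside the counts of each list below. Of the other ligands and the binding protein, 2 of 7 measured genes could be tested and both were lower. Il1f9 was at 259, 218 and 305 FPKM in PMN-MDSCs and at 4.74, 2.74 and 8.76 FPKM in WT Mo-MDSCs, with no overlap and a log2 difference of -5.70 (SE 0.377, limma adjusted p = 5.70e-05). Il18bp, which encodes the soluble antagonist of IL-18, was lower by a smaller step (log2 difference -0.72). Il33 was below 1 FPKM in all samples.

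Of the other receptors of the family, 2 of 4 tested genes were lower and none was higher (limma, none at an unadjusted p under 0.05). Both were chains of the IL-18 receptor. Il18rap was at 60.3, 54.2 and 71.6 FPKM in PMN-MDSCs and at 5.60, 4.97 and 9.00 FPKM in WT Mo-MDSCs. Its groups did not overlap, with a log2 difference of -3.27, and that of Il18r1, the ligand-binding chain, was -1.52. Il18, the ligand, was level between the subsets (above).

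The inflammasome sensors and the adaptor went mostly the other way from Nlrp3. Of 11 tested, 7 were higher in WT Mo-MDSCs and 1 was lower. Nlrp12, a sensor of the NLR family studied as a brake on inflammation, was at 59.0, 59.8 and 68.6 FPKM in PMN-MDSCs and at 0.537, 0.703 and 1.08 FPKM in WT Mo-MDSCs, with no overlap and a log2 difference of -6.21. It passed the filter on low values through its PMN-MDSC samples. Naip6 and Naip5, whose products sense bacterial flagellin for the NLRC4 inflammasome, were higher, with log2 differences of 2.27 and 1.76.

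Of 8 genes of inflammasome effectors and triggers, 4 were lower and 3 higher. The largest differences were of Txnip, which encodes a thioredoxin-binding protein linked to NLRP3 (-1.39), Ninj1, which encodes the protein that ruptures the membrane of dying cells (-1.11), and Casp4, the mouse gene of caspase-11 (-1.08). Among 17 tested genes of IL-1 receptor signalling, 7 were lower and 4 higher. The kinase gene Ikbkb was higher (1.26), and Myd88, the adaptor, and Irak4, its kinase, were lower (-1.01 and -0.55). Of 20 tested genes of NF-kB subunits and NF-kB-induced genes, 8 were lower and 3 higher. The largest differences were of induced genes at low levels, Ptgs2 (-4.88), Cxcl2 (-4.21) and Ccl4 (-1.63), none of which reached 7 FPKM in any of these 6 samples. Ptgs2 and Cxcl2 were below 1 FPKM in every WT Mo-MDSC sample. They therefore passed the filter through the PMN-MDSC samples alone and could only be called as lower. The size of these differences depends on the 0.1 FPKM added to each value.

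**Figure D4:**
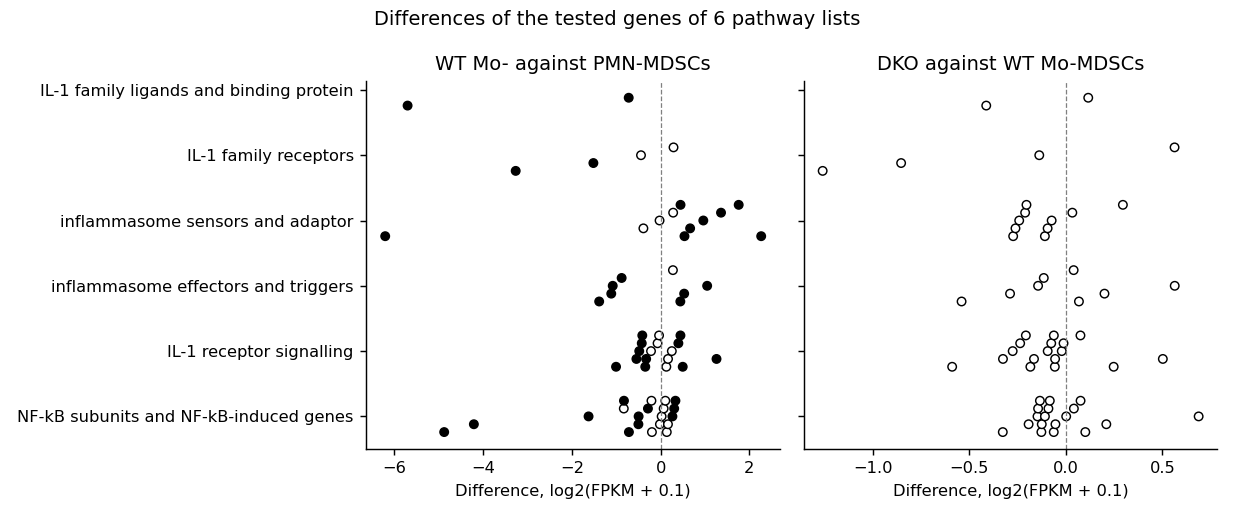
Log2 differences on the log2(FPKM + 0.1) scale of the tested genes of 6 pathway lists in WT Mo- against PMN-MDSCs (left) and in Mo-MDSCs labelled DKO against WT (right, with its own axis), 1 point a gene. Filled points passed an adjusted p of 0.05, which 41 did on the left and 0 on the right.

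The second comparison asks what differs in Mo-MDSCs labelled DKO. Il1rn was the only 1 of the 9 genes that passed the test, and it was lower. None was higher (limma), although Il1r1 had an unadjusted p under 0.05. Over all 11451 genes tested, 0.0873% were lower and 0.166% were higher. The median log2 difference of the 9 genes was 0.04, beside -0.02 over all genes tested. Because the levels of Cdkn1a do not check the genotype, these directions hold for the labels.

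Il1rn was at 3.54, 3.34 and 3.59 FPKM in Mo-MDSCs labelled DKO, against 8.18, 6.31 and 8.53 FPKM in WT Mo-MDSCs. All samples labelled DKO were below all WT samples, with means of 3.49 ± 0.130 and 7.67 ± 1.19 FPKM (SD, n = 3 each). The log2 difference was -1.10 (SE 0.138, 95% interval from -1.42 to -0.78, limma adjusted p = 0.0299), and the mean was 4.42% of that in PMN-MDSCs. The call depended on which samples and genes entered the fit. It was lost without WT Mo-MDSC replicate 1 (limma adjusted p = 0.176) or 3 (0.149), and without replicate 1 (0.0848), 2 (0.0851) or 3 (0.153) of those labelled DKO. Within the library series the log2 difference was -1.19 in replicate 1 and -1.06 in replicates 2 and 3 (limma adjusted p = 0.370). The direction was the same in all of these, with log2 differences between -1.24 and -0.94 over 15 alternatives. By contrast, the paper reports similar Il1rn levels in MDSCs of the WT and p16/p21-DKO genotypes. Its measurements were not compared with the values here.

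Of 7 neutrophil markers, none passed the test in the Mo-MDSCs labelled DKO (limma, smallest adjusted p = 0.128, with 6 at an unadjusted p under 0.05). Of these 6, Mmp8 was higher and the others were lower, and Cxcr2 was the marker not under that limit. As the share of all tested genes under it was not computed, the count is not read as a result. The 7 markers summed to 2020 to 4267 FPKM, against 4500 to 14036 FPKM in WT. The mean in samples labelled DKO was 0.582 times that in WT for Cxcr2, 0.767 for Csf3r, 0.322 for Retnlg, 0.386 for Camp, 0.350 for Ltf, 0.339 for Ngp and 1.76 for Mmp8. The same quotient was 0.455 for Il1rn, 0.764 for Il1b, 0.620 for Il1r2 and 0.825 for Il1rap. The part of neutrophil-type cells in these values was not tested.

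Il1b was at 25.0, 31.5 and 19.3 FPKM in Mo-MDSCs labelled DKO, which overlapped the WT samples (log2 difference -0.39, 95% interval from -0.87 to 0.08, limma adjusted p = 0.399). Within the 6 Mo-MDSC samples, Il1b and Il1r2 were highest where Cxcr2 was highest. WT replicate 3 had 39.2 FPKM of Il1b, 14.2 FPKM of Il1r2 and 18.6 FPKM of Cxcr2. Of the samples labelled DKO, replicate 2 was highest in these 3 genes, at 31.5, 9.42 and 9.71 FPKM. Within WT, Il1rn also rose with Cxcr2, at 6.31, 8.18 and 8.53 FPKM in replicates 2, 1 and 3. In the samples labelled DKO it spanned only 3.34 to 3.59 FPKM, with the lowest value in replicate 2. WT replicate 1, at a level of Cxcr2 similar to that sample, had 8.18 FPKM of Il1rn. By other neutrophil markers these samples were not alike. Retnlg was at 64.6 FPKM in WT replicate 1 and 33.3 FPKM in replicate 2 labelled DKO, and Ngp at 3337 and 2155 FPKM. Camp and Ltf were also higher in WT replicate 1, Csf3r was similar (74.9 and 70.7 FPKM) and Mmp8 was lower (42.3 and 112 FPKM). Similar Cxcr2 thus does not show a similar part of neutrophil-type cells. Of the 7 markers above, Retnlg, Camp, Ltf and Ngp had lower quotients than Il1rn, and Cxcr2, Csf3r and Mmp8 higher ones. The part of neutrophil-type cells in the Il1rn difference was not tested.

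**Figure D5:**
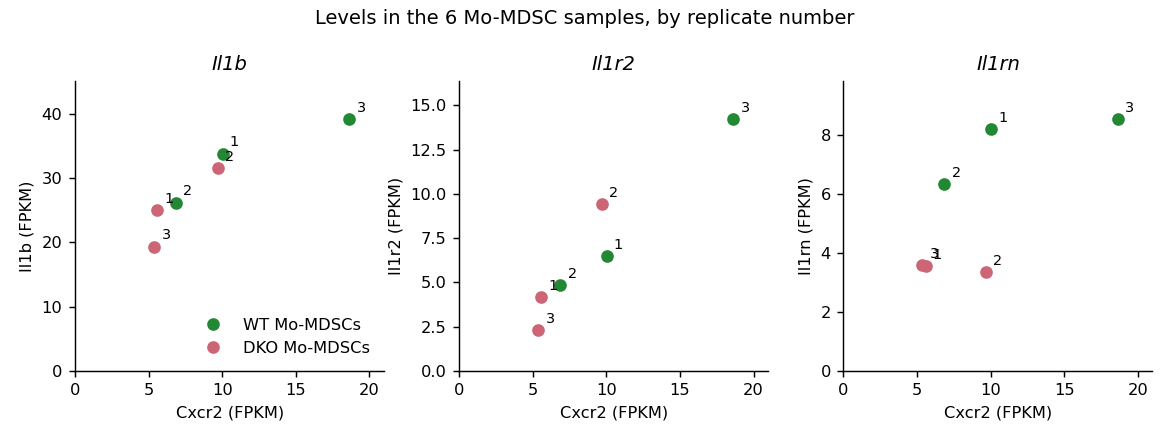
FPKM of Il1b, Il1r2 and Il1rn against FPKM of the neutrophil gene Cxcr2 (linear axes from 0) in the 3 WT Mo-MDSC samples and the 3 labelled DKO, 1 numbered point a replicate. The samples labelled DKO overlap the WT samples for Il1b and Il1r2 and, at 3.34 to 3.59 FPKM, lie below them for Il1rn. The other neutrophil markers are not shown.

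In the Mo-MDSCs labelled DKO there were 14.2, 10.6 and 18.6 FPKM of Il1rn per 100 FPKM of Il1b. All 3 were below the WT Mo-MDSC samples (21.8 to 24.2) and above the PMN-MDSC samples. The log2 ratio differed by -0.71, with a mean of -2.79 ± 0.401 (SD, n = 3) against -2.08 ± 0.0887 (SD, n = 3) in WT, and an exact two-sided permutation p = 0.1, the smallest possible.

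The receptors did not pass the test. Il1r2 was at 4.16, 9.42 and 2.28 FPKM in the samples labelled DKO, a wide spread that overlapped WT (log2 difference -0.76, 95% interval from -2.02 to 0.50). Il1rap was at 4.23, 5.35 and 4.68 FPKM and also overlapped WT (-0.25, from -0.70 to 0.20). Il1r1 was at 2.76, 1.91 and 2.39 FPKM, each above the highest WT sample at 1.78 FPKM. Its log2 difference was 0.47 (95% interval from 0.02 to 0.91, limma adjusted p = 0.316).

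The other ligands and the processing genes overlapped between the genotype labels. Il1a was at 15.8, 9.44 and 11.8 FPKM in the samples labelled DKO (log2 difference 0.16, 95% interval from -0.30 to 0.63). Il18 was at 199, 137 and 111 FPKM (0.24, from -0.21 to 0.69). Replicate 1 was the highest of its group for both, and also for the splenic macrophage gene Spic (520, 390 and 328 FPKM). The part of macrophages in these values was not tested. Casp1 was at 72.4, 56.6 and 52.8 FPKM (0.04, from -0.28 to 0.37) and Nlrp3 at 15.4, 14.1 and 13.5 FPKM (0.10, from -0.11 to 0.32), and Nlrp3 had the narrowest interval of the 9.

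None of 59 tested genes of the 6 pathway lists passed the test in the Mo-MDSCs labelled DKO (limma), and their median log2 difference was -0.09. In a fit without variance moderation no gene at all passed an adjusted p of 0.05. Of the 59 genes, 11 had an unadjusted p under 0.05 (limma). The share of all tested genes under that limit was not computed, so this count is not read as a result. The smallest adjusted p-values within the lists were 0.0781 among inflammasome effectors and triggers, 0.0862 in IL-1 receptor signalling and 0.153 among the receptors. Il1f9, at 2.88, 4.65 and 3.55 FPKM, overlapped WT Mo-MDSCs. Il18rap, at 2.33, 3.68 and 1.98 FPKM, was below all WT Mo-MDSC samples without passing the test.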

How the data were processed

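RNA-sequencing values of splenic MDSCs were analysed in 3 groups of 3 samples, grouped by the sample labels. The authors made stranded mRNA libraries and mapped single-end reads to mm10 with TopHat2 2.0.13, Bowtie2 2.2.3 and SAMtools 0.1.19, per the submitters' processing notes. They deposited FPKM values from Cuffnorm 2.2.1, 1 table per sample. The annotation and the scaling mode of Cuffnorm are not given in the sources used here. FPKM are not counts, and were not tested as such.

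Values were transformed to log2(FPKM + 0.1), so that changes of low genes are understated. For each comparison of 6 samples, the genes that reached 1 FPKM in 3 or more were fitted with limma 3.58.1 (R 4.3.3, eBayes with a trend, no covariates), and all 9 members passed this filter in both comparisons. P-values were adjusted over all genes tested by the Benjamini-Hochberg method. The fit was tested on simulated data. The log2 ratio of Il1rn to Il1b was compared with an exact two-sided permutation test. The intervals are 95% intervals of the fit. Values were summarised in pandas 2.3.3 and numpy 2.4.6 and plotted in matplotlib 3.10.9, under Python 3.11.15.

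The 9 members, the gene lists and the tests were chosen with earlier results of these data known. Named genes are the members in every sample, the called genes with the 3 largest differences in each pathway list, the 3 nearest genes of each member and the targeted genes. Other genes (markers, Il33, and Il1f9 and Il18rap among those labelled DKO) were named for the groups they mark or to complete a family. Il36a, Il36b, Il36g and Il36rn are not symbols of the tables, in which older symbols stand for them. RefSeq pairs Il1f9 with Il36g.

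The alternatives were pseudocounts of 1 and 0.01, no filter on low values, median-of-ratios scaling, quantile normalization, all 9 samples in 1 fit, no variance moderation, replicates 2 and 3 only, a block for the replicate number, and leaving out each sample. Deviations from the group means of same-numbered samples correlated between WT PMN- and Mo-MDSCs (r from 0.200 to 0.483). Those of differently numbered samples had r from -0.429 to 0.0499. The numbers may thus pair those samples, although deviations from the mean of 3 samples are not independent. The main fit and the permutation test took the samples as unpaired. The labels do not say what the numbers share. Between WT and DKO-labelled Mo-MDSCs, the deviations of same-numbered samples did not all correlate (r from -0.07 to 0.348). No 2 samples held the same values.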

Additional observations from a re-analysis of the deposited data

How the results depend on the processing

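All 5 members called lower in WT Mo- against PMN-MDSCs kept their call and direction under all 15 alternatives, and 0 were called higher in any. The genes called in that comparison numbered 4492, and 2952 in replicates 2 and 3 only. With the replicate number as a block there were 6584, with no member's call changed. The difference in the log2 ratio of Il1rn to Il1b between these subsets was 2.37, and 2.47 with a pseudocount of 1. In the comparison of DKO-labelled with WT Mo-MDSCs, 29 genes were called. There were 13 without the filter on low values, 51 with all 9 samples in 1 fit, 0 without variance moderation and 7 in replicates 2 and 3 only, and between 8 and 23 when a sample was left out. The call of Il1rn, the 1 member called, was lost (0 members called) without the filter (limma adjusted p = 0.0770), without moderation (0.335) and in replicates 2 and 3 only (0.370). When a sample was left out the members called were between 0 and 1, and Il1rn kept its call only without WT Mo-MDSC replicate 2. With the replicate block, 20 genes were called and Il1rn kept its call (0.0474). More genes tested (no filter) or fewer samples are part of how these alternatives were built, and otherwise the cause was not tested. The numbers of the reads are unknown, so that no counting limit can be given for low members such as Il1r1.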
